A study of Mus musculus with 10 samples.

Results

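The mitotic spindle and G2/M genes are 55 genes that a cell uses to condense its chromosomes, build the spindle, attach and separate the chromosomes and divide the cytoplasm. They were chosen by name, from a written list of symbols matched to the Ensembl identifiers of the count files. The rule uses no measured value, although the list was written with earlier results of these data known. All 55 were found among the 53379 genes of the files, and all 55 were among the 11551 genes with enough reads to be tested. They were compared between E16 cortices of cKO-Cdkn1c-MADM-7 mice and of MADM-7 controls, and every cKO mean exceeded the control mean: the fitted differences ran from 0.12 to 1.35 on the log2 scale, and 12 of the 55 genes passed the test across all genes, all of them higher in cKO. Of all genes tested, 2.27% passed as higher and 0.883% as lower, and 51.3% had a fitted difference above 0.

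The libraries came from the neocortex of embryos at embryonic day 16, with 3 cKO embryos and 7 control embryos. All of them carried the MADM-7 cassettes GT and TG and 1 copy of Emx1-Cre, and in the cKO both the GT and the TG chromosome also carried a floxed Cdkn1c allele. In MADM (mosaic analysis with double markers), Cre-driven exchange between split reporter cassettes on a chromosome, here chromosome 7, labels sparse cells green, red or yellow. Green, red and yellow cells of 1 embryo were sorted together, 400 cells per library, so each library is 1 embryo and mixes cells with maternal, paternal or no uniparental disomy of chromosome 7. The background was a mixed C57BL/6J, CD1 one (the labels give CD1), embryos of both sexes were used, and Cre deletes the floxed alleles of the cKO in the cells that are sorted. Emx1-Cre is active in the progenitors of the dorsal telencephalon from early neurogenesis, so the neurons and progenitors of the cortical excitatory lineage are sampled at once, and a gene's level in a library is an average over dividing progenitors and neurons that no longer divide.

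Cdkn1c encodes p57KIP2, an inhibitor of cyclin-dependent kinases that restrains entry into S phase. Genes of the spindle and of G2/M are transcribed late in the cell cycle: they are held down in quiescent and G1 cells by the DREAM complex and switched on in S and G2 by B-Myb (Mybl2) and FoxM1 acting through the MuvB core. Many of their products, though not all, are destroyed after mitosis through the anaphase-promoting complex (APC/C). In the embryonic cortex they mark radial glial progenitors (RGPs) and intermediate progenitors in cycle, and postmitotic neurons lack most of them.

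A few promoters are shown here because they hold letters of the elements known from genes of this class, the cell cycle homology region (CHR), to which the MuvB core of these complexes binds, and the box bound by the transcription factor NF-Y, beside 1 of a gene that rose with neither element in its window. The CHR was searched as TTTGAA or TTCGAA and the NF-Y box as CCAAT, each on both strands. TTCGAA reads the same on both strands and was counted once, and no match to either element is also a match to the other. RefSeq promoters of GRCm38.p6, from 250 bases before to 50 after the transcription start, were at hand for 47 of the 55 genes (52 promoters, since some genes have more than 1 start). Each line below gives the 150 bases before the start of a gene, 5′ to 3′ on the strand of the gene, with matches to either element in capitals. Top2a (chr11:99024190-99024339, minus strand) and Mki67 (chr7:135716380-135716529, minus strand) are textbook proliferation genes. Hmgb2 (chr8:57511693-57511842, plus strand), Ube2c (chr2:164769779-164769928, plus strand), Cenpa (chr5:30666736-30666885, plus strand) and Pttg1 (chr11:43425982-43426131, minus strand) are genes that rose, and Cdc20 (chr4:118437344-118437493, minus strand) is an APC/C activator.
Hmgb2: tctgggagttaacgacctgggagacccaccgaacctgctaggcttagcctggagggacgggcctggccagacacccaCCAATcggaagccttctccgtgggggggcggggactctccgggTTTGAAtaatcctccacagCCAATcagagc
Ube2c: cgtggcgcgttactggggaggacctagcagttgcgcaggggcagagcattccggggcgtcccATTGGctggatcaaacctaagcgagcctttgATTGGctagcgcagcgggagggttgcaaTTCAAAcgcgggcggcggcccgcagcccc
Cdc20: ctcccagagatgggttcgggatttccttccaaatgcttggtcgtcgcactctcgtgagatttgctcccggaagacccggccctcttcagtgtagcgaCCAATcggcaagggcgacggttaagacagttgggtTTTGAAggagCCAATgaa
Top2a: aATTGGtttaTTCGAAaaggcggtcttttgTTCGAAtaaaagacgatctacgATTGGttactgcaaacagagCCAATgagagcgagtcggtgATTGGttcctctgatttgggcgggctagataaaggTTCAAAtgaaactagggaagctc
Mki67: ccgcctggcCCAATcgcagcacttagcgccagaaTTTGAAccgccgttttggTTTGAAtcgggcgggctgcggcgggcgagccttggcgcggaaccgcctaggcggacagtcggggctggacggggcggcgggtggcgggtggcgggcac
Cenpa: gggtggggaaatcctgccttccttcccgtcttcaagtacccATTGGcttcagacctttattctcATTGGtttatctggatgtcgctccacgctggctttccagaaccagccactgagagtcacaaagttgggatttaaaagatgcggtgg
Pttg1: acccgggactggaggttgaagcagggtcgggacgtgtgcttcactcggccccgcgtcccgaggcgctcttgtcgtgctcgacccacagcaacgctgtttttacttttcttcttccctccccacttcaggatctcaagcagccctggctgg

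The CHR letters were in 38 of the 52 promoters (73.1%), against 19.2% of 32851 promoters of all genes and 13.2% of the promoters of the genes tested. The NF-Y box was likewise in 73.1% of the 52, against 37.4% of all, and both elements together were in 63.5% against 7.52%. Matches to the CHR gathered at the start site: 26.9% of the 52 promoters had one beginning in the 25 bases from the start on, against 1.04% of the promoters of genes tested, and Cenpa is such a case, with TTTGAA 17 bases into the transcript and none in the stretch printed above. NF-Y boxes were commonest a little upstream, with 32.7% of the 52 promoters having one between 75 and 51 bases before the start, against 9.27% of the promoters of genes tested. The CHR was in 7 of the 11 promoters of genes that passed the test and in 31 of the 41 promoters of the others (63.6% and 75.6%), the NF-Y box in 5 and 33 (45.5% and 80.5%), and both elements in 5 and 28 (45.5% and 68.3%), with no test of these differences. Of the genes that rose, Pttg1, Knstrn, Birc5 and Tacc3 had neither element anywhere in the window. Among 45 promoters of S-phase genes, the CHR was in 13.3%, the NF-Y box in 60.0% and both in 11.1%. Among 125 promoters of other mitotic genes, the CHR was in 41.6%, the NF-Y box in 58.4% and both in 27.2%. These are matches of letters in a reference sequence, and no binding was measured here.

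**Figure D1:**
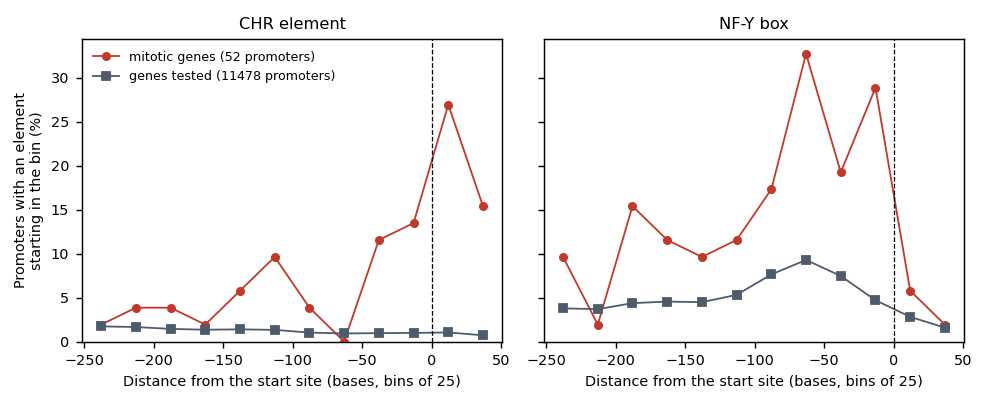
Share of promoters (y axis, %) with a CHR element (left) or an NF-Y box (right) beginning in each bin of 25 bases along the promoter (x axis, bases from the start site), for the 52 promoters of the mitotic genes (red circles) and the 11478 promoters of the genes tested (grey squares). The CHR of the mitotic genes peaks at 26.9% just after the start site and the NF-Y box at 32.7% between 75 and 51 bases before it, while the genes tested stay below 2% and 10% respectively.

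Values below are CPM, read counts set relative to the library's total on the 11551 genes tested, scaled by the TMM factors of edgeR. A difference is a log2 fold change, cKO minus control, with its standard error (SE) from edgeR's quasi-likelihood test over all 11551 genes, and adjusted p values are Benjamini-Hochberg values over the same genes. A gene is said to have risen or fallen where its adjusted p was under 0.05. Between 1738220 and 3362487 reads per library fell on genes, with control replicate 5 the lowest. The deleted gene followed the labels: Cdkn1c was at 10.8, 3.94 and 7.64 CPM in cKO replicates 1, 2 and 3 and at 67.5 to 131 CPM in the controls, a log2 fold change of -3.66 (SE 0.31). Cdkn1a, which encodes the related inhibitor p21, stood at 209, 163 and 360.2 CPM in the cKO libraries and at 9.71 to 69.2 CPM in the controls, a log2 fold change of 3.27 (SE 0.36).

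Of the 55 mitotic genes 12 rose (21.8%), and none fell, against a background of 2.27% of all genes tested that rose and 0.883% that fell. The unadjusted p was under 0.05 in the same direction for 31 of the 55, against 9.25% of all genes, and in the other direction for none. DESeq2 called 14 of the 55, the same 12 with Cenpe and Cks2, and limma-voom 12, with Spc24 in place of Birc5, and neither called any of them lower. The log2 fold change was above 0 for all 55, which held for 51.3% of all genes, and its median was 0.76 beside 0.011 over all genes tested. In these bulk libraries, more cells in mitosis or G2 and more of the RNA per such cell cannot be told apart. The count rests on few embryos: without cKO replicate 1 it was 22, without cKO replicate 2 it was 4, without cKO replicate 3 it was 7, and without control replicate 2 or control replicate 4 it was 7. It was 21 where every gene with a read was kept. Over all genes, 262 rose in the reported fit. Without cKO replicate 1, 2 or 3 that number was 240, 268 or 187, and without control replicate 2 or 4 it was 205 or 210. With every gene kept, 701 of 26537 rose. Without cKO replicate 2 the median fell to 0.34, and 47 of the 55 values stayed above 0. It was 54 of the 55 without cKO replicate 1, without cKO replicate 3 and by limma-voom.

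**Figure D2:**
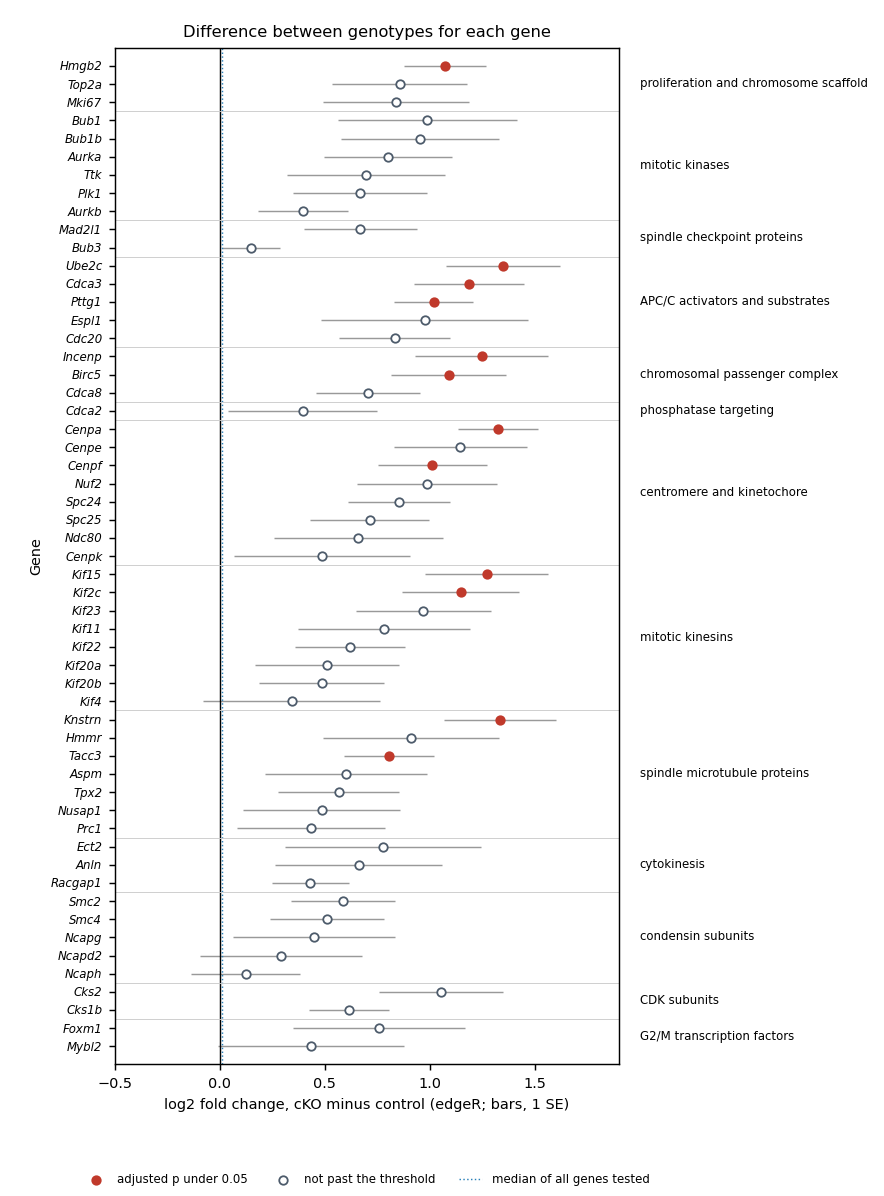
Log2 fold change of each of the 55 genes, cKO minus control (x axis), grouped by role (right), with bars of 1 SE from edgeR; filled red points passed an adjusted p of 0.05. All 55 points lie to the right of 0, from 0.12 (Ncaph) to 1.35 (Ube2c), and the dotted line marks the median of all genes tested, 0.011.

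At the centromere and kinetochore, the site at which chromosomes grip the spindle, 2 of 8 genes rose. Cenpa, the histone H3 variant that marks centromeres, was at 147, 212 and 229 CPM in cKO replicates 1, 2 and 3 and at 47.5 to 102 CPM in the controls (median 76.1), a log2 fold change of 1.32 (SE 0.19, adjusted p = 0.000565). Every cKO library lay above every control, and Cenpa had the smallest p of the 55. Cenpf, a large kinetochore protein that accumulates in G2, was at 67.1, 134 and 95.0 CPM in the cKO libraries, with the first of these inside the control range of 28.3 to 82.7 CPM (log2 fold change 1.01, SE 0.26, adjusted p = 0.0385). Cenpe, a kinesin motor of the kinetochore, missed the threshold narrowly, with a log2 fold change of 1.15 (SE 0.32, adjusted p = 0.0595). Cenpa passed in all 23 alternatives to the test as reported, that is, other tools, scalings, filters, count columns, covariates and sets of libraries. Cenpf passed in 15 of them, and it missed the threshold without cKO replicate 2 or 3, without control replicate 1, 3, 4, 6 or 7, and in the fit with a covariate for reads that fell outside genes. The NDC80 complex, which binds the microtubule end, has 4 subunits, and none of them passed in edgeR: the log2 fold changes were 0.99 (SE 0.33) for Nuf2, 0.85 (SE 0.24) for Spc24, 0.71 (SE 0.28) for Spc25 and 0.66 (SE 0.40) for Ndc80. Cenpk, an inner kinetochore subunit, was at 8.77, 28.8 and 27.6 CPM against 6.83 to 26.6 CPM in the controls.

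Ubiquitin ligation by the APC/C and its substrates gave 3 rises among 5 genes. Ube2c, the ubiquitin-conjugating enzyme of the APC/C, was at 259, 451 and 255 CPM in the cKO libraries and at 74.2 to 226 CPM in the controls (median 107), a log2 fold change of 1.35 (SE 0.27, adjusted p = 0.00936) with no overlap of the groups. Pttg1, the securin that holds separase in check until anaphase, was at 133, 210.0 and 192 CPM against 71.9 to 124 CPM, again without overlap (log2 fold change 1.02, SE 0.19, adjusted p = 0.00469). Cdca3, an adaptor that triggers the destruction of Wee1, was at 70.2, 163 and 106 CPM against 32.4 to 71.6 CPM, so that cKO replicate 1 fell just inside the controls (log2 fold change 1.19, SE 0.26, adjusted p = 0.0173). Without cKO replicate 2, Ube2c and Cdca3 did not pass, and Cdca3 also did not pass without cKO replicate 3, whereas Pttg1 passed in all 23 alternatives. Cdc20, the activator of the APC/C at anaphase, was the one gene of the group with its highest cKO level in replicate 1, at 111 CPM, beside 66.6 and 66.2 CPM in replicates 2 and 3 and 29.5 to 80.9 CPM in the controls. Its log2 fold change was 0.83 (SE 0.26, adjusted p = 0.105). Espl1, the separase itself, had between 1 and 25 reads per library and a log2 fold change of 0.97 (SE 0.49).

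The chromosomal passenger complex, which corrects faulty attachments and then directs the cleavage furrow, had 2 risen subunits of 3. Incenp, its scaffold, was at 42.5, 33.1 and 23.8 CPM in the cKO libraries and at 6.42 to 21.0 CPM in the controls (log2 fold change 1.25, SE 0.31, adjusted p = 0.0372), and here cKO replicate 1 was the highest of all 10 libraries. Birc5, survivin, was at 45.9, 112 and 117 CPM against 28.5 to 68.7 CPM (log2 fold change 1.09, SE 0.27, adjusted p = 0.0361), with replicate 1 within the controls. Incenp passed in 13 of the 23 alternatives, and it missed the threshold without cKO replicate 1 or 2, without control replicate 1, 2, 4 or 7, without the libraries high in blood markers, with the replicate block, with the covariate for reads outside genes and on thinned counts. Birc5 passed in 15, and it missed the threshold by limma-voom, without cKO replicate 2 or 3 and without control replicate 1, 2, 3, 4 or 7. Without cKO replicate 2, none of the 3 subunits passed. Cdca8, borealin, had a log2 fold change of 0.71 (SE 0.25, adjusted p = 0.144). The kinase of the complex, Aurkb, was at 45.5, 100.1 and 78.9 CPM against 49.1 to 66.4 CPM. For Aurkb, cKO replicate 1 was thus below every control and replicates 2 and 3 above every control, and the log2 fold change was 0.40 (SE 0.21, adjusted p = 0.376).

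Spindle motors and microtubule proteins gave 4 rises among 15 genes. Kif15, a kinesin that holds the spindle bipolar together with Kif11, was at 21.2, 40.6 and 26.7 CPM in the cKO libraries and at 8.21 to 20.4 CPM in the controls (log2 fold change 1.27, SE 0.29, adjusted p = 0.0213). Kif2c, the kinesin that removes tubulin from microtubule ends at centromeres, was at 24.3, 35.1 and 22.1 CPM against 7.46 to 15.6 CPM (log2 fold change 1.15, SE 0.28, adjusted p = 0.0308). Neither of these kinesins overlapped between the genotypes. Knstrn, a kinetochore-localised spindle protein, was at 39.5, 55.2 and 43.7 CPM against 11.8 to 30.9 CPM (log2 fold change 1.33, SE 0.27, adjusted p = 0.00892), also without overlap. Tacc3, which cross-links spindle microtubules, came closest to the threshold from inside, at 56.7, 82.3 and 70.9 CPM against 29.4 to 61.7 CPM (log2 fold change 0.81, SE 0.21, adjusted p = 0.0483). Knstrn passed in all 23 alternatives, Kif15 in 18, Kif2c in 17 and Tacc3 in 11. Kif15 missed the threshold without cKO replicate 2 or 3 and without control replicate 2, Kif2c without cKO replicate 2 and without control replicate 2, 4 or 5, and Tacc3 without cKO replicate 2 or 3 and without control replicate 1, 2, 3, 4 or 7. With the replicate block, none of Kif15, Kif2c and Tacc3 passed. Kif15 and Tacc3 also missed the threshold on thinned counts and Kif2c without the libraries high in blood markers, and Tacc3 did so as well with a filter of at least 10 reads in at least 3 libraries, with the strand-specific counts summed and with the covariate for reads outside genes. The other 6 kinesins ran from a log2 fold change of 0.34 for the chromokinesin Kif4 to 0.97 for Kif23, a part of the central spindle. Tpx2, Nusap1, Prc1, Hmmr and Aspm, which nucleate, bundle or focus spindle microtubules, ran from 0.44 for Prc1 to 0.91 for Hmmr. For Hmmr the 3 cKO libraries were at 7.76, 43.3 and 20.8 CPM, which runs from near the bottom of the control range of 6.78 to 22.1 CPM to well above its top.

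Chromosome structure and proliferation markers gave 1 rise. Hmgb2, a chromatin protein abundant in dividing progenitors, was at 144, 271 and 221 CPM in the cKO libraries and at 74.9 to 139 CPM in the controls, a log2 fold change of 1.07 (SE 0.20, adjusted p = 0.00418) with no overlap. Top2a, the topoisomerase that untangles sister chromatids, was at 80.9, 273 and 140 CPM against 60.1 to 171 CPM (median 78.4), with a log2 fold change of 0.86 (SE 0.32, adjusted p = 0.176). Mki67, the gene of the Ki-67 antigen, was at 33.4, 114 and 61.5 CPM against 23.7 to 75.1 CPM (median 31.1), with a log2 fold change of 0.84 (SE 0.35, adjusted p = 0.228). In both, cKO replicate 2 was alone above the controls. Condensin, which compacts chromosomes, gave no rise among 5 subunits by any of the 3 tools (1 at an unadjusted p under 0.05), and its log2 fold changes were 0.58 (Smc2), 0.51 (Smc4), 0.45 (Ncapg), 0.29 (Ncapd2) and 0.12 (Ncaph, the lowest of the 55).

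Kinases, checkpoint proteins, CDK subunits, transcription factors and cytokinesis genes gave no rise in edgeR or limma-voom, and DESeq2 called 1 of them higher (Cks2). At an unadjusted p under 0.05 stood 3 of 6 kinases, 1 of 2 checkpoint proteins, both CDK subunits, 1 of 3 cytokinesis genes and neither transcription factor. Among the mitotic kinases, Plk1, which drives entry into mitosis, was at 34.7, 57.5 and 28.4 CPM against 13.8 to 53.0 CPM (log2 fold change 0.67, SE 0.32, adjusted p = 0.310). Bub1, Bub1b and Ttk, kinases of the spindle checkpoint, and Aurka, the kinase of the spindle poles, had log2 fold changes of 0.70 to 0.99 with SE of 0.31 to 0.43. Of the checkpoint proteins without kinase activity, Mad2l1 was at 29.0, 67.8 and 69.2 CPM against 25.5 to 43.7 CPM (log2 fold change 0.67, SE 0.27), and Bub3 had a log2 fold change of 0.15 (SE 0.14, adjusted p = 0.662). Bub3 was among the 3 genes with the highest level per kilobase of exon in the controls, at 47.1 CPM per kb. The others were Cks1b, at 104 CPM per kb, and Ube2c, at 49.4 CPM per kb, against a median of 3.95 CPM per kb over the 55. Cks1b and Cks2, small subunits that tether CDK1 to its substrates, had log2 fold changes of 0.62 (SE 0.19, adjusted p = 0.0945) and 1.05 (SE 0.29, adjusted p = 0.0640). The transcription factors of the programme were low and imprecise: Foxm1 was at 7.76, 23.6 and 8.91 CPM against 3.91 to 13.4 CPM (log2 fold change 0.76, SE 0.41, adjusted p = 0.378), and Mybl2 at 6.41, 5.52 and 4.24 CPM against 2.13 to 7.26 CPM (log2 fold change 0.43, SE 0.44, adjusted p = 0.697). In cytokinesis, Ect2, the exchange factor that activates RhoA at the furrow, ranged most widely, at 5.73, 58.7 and 17.4 CPM in the cKO libraries. Anln and Racgap1, which build the contractile ring and the central spindle, had log2 fold changes of 0.66 (SE 0.40) and 0.43 (SE 0.18), and Cdca2, which brings a phosphatase back to chromatin at anaphase, one of 0.39 (SE 0.35).

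**Figure D3:**
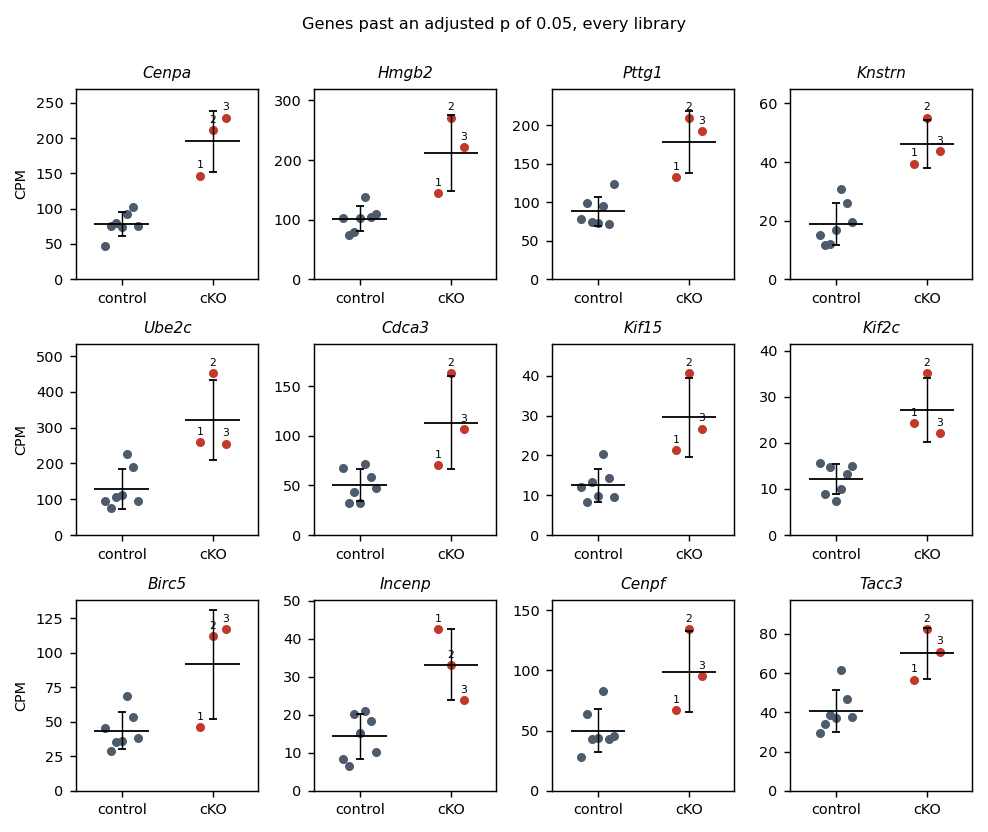
CPM (y axis) of the 12 genes that passed an adjusted p of 0.05, in 7 control (grey) and 3 cKO (red, numbered by replicate) libraries; horizontal lines are means and bars 1 SD. The cKO points of Cenpa, at 147 to 229 CPM, lie clear of the controls, which end at 102 CPM, while cKO replicate 1 reaches into the control range for Cdca3, Birc5, Cenpf and Tacc3.

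All 3 cKO libraries lay above all 7 controls for 8 of the 55 genes, Hmgb2, Ube2c, Pttg1, Incenp, Cenpa, Kif2c, Kif15 and Knstrn. That is 14.5%, against a background of 3.32% of all genes tested, and no gene of the 55 had all cKO libraries below all controls (background 2.68%). The same separation held for 8 of the 48 S-phase genes tested (16.7%) and 11 of the 128 further mitotic genes tested (8.59%). The cKO embryos themselves differed widely. Replicate 2 was above every control for 49 genes (89.1%, background 20.9%) and replicate 3 for 37 (67.3%, background 18.8%). Replicate 1 was above every control for 11 genes (20.0%, background 23.1%) and below every control for 9 (16.4%, background 23.4%), shares close to those of all genes. The 9 were Aurkb, Ndc80, Kif20b, Kif4, Prc1, Nusap1, Anln, Ect2 and Ncaph. The commonest arrangement, in 22 genes, was replicate 1 within the controls and replicates 2 and 3 above them. Within the cKO group replicate 2 had the highest value in 44 of the 55 genes and replicate 1 the lowest in 47. Among the controls, replicate 5 was the highest in 41 of 55 (background 15.5% of all genes).

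**Figure D4:**
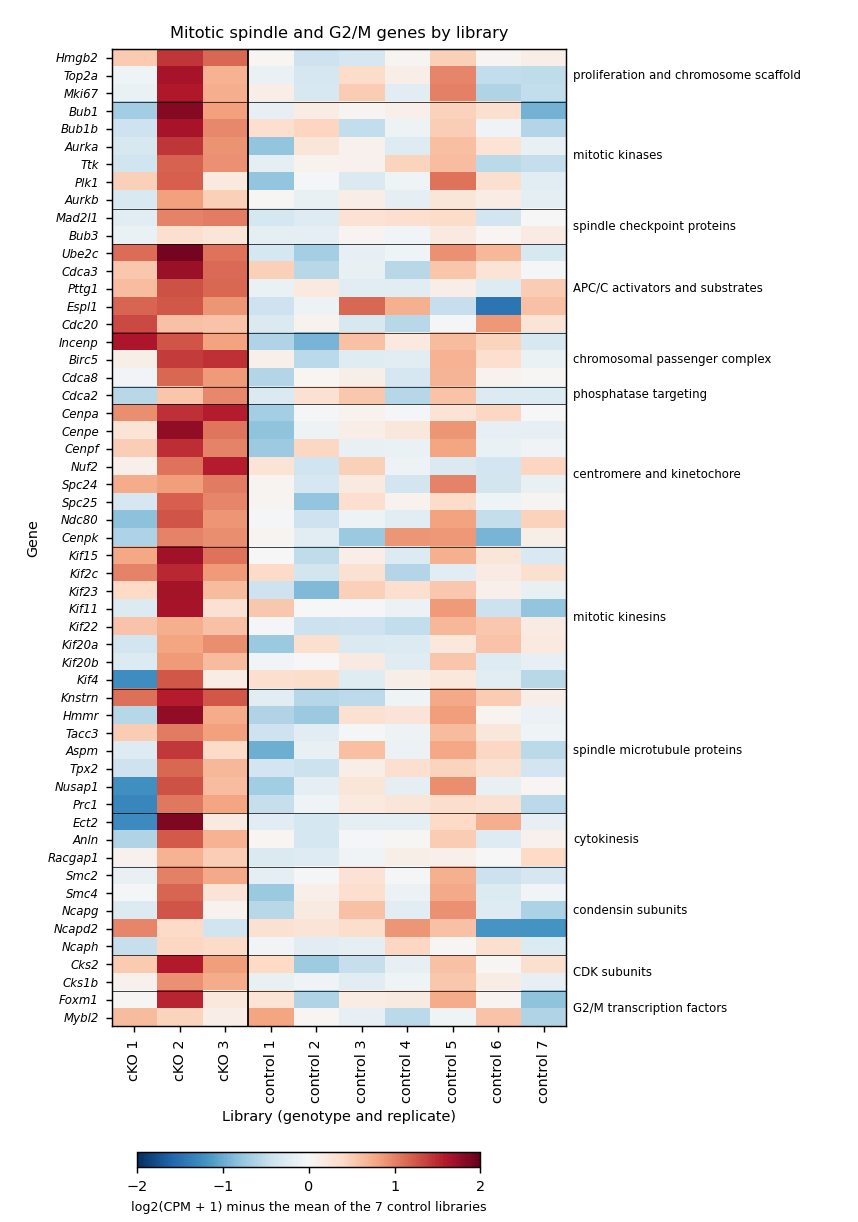
Each of the 55 genes (rows, grouped by role) in each of the 10 libraries (columns), coloured by log2(CPM + 1) minus the mean of the 7 control libraries. The column of cKO replicate 2 is red in nearly every row and that of replicate 3 in most, whereas the column of replicate 1 is mixed, and control replicate 5 is the reddest of the controls.

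Summed over the 55 genes, the level was 2639, 5121 and 3872 CPM in cKO replicates 1, 2 and 3, and between 1928 and 3262 CPM in the controls, with a median of 2158 CPM. The means, 3877 ± 1241 (SD, n = 3) and 2305 ± 450.2 CPM (SD, n = 7), stood in a ratio of 1.68, and the groups overlapped through cKO replicate 1 and control replicate 5. Among the libraries with 12.8 to 16.7% of reads outside genes, cKO replicates 1 and 2 and control replicates 3, 4 and 5, the ratio was 1.51 and the groups overlapped. The libraries with a lower share include a single cKO embryo, so no ratio is given for them. The libraries through which the groups overlapped were also at the ends of the range of progenitor markers. The sum over 19 RGP markers was 2448, 4389 and 3521 CPM in the cKO libraries, lowest of all 10 in replicate 1, and 2871 to 4490 CPM in the controls, highest of all 10 in control replicate 5. Set against this sum, the mitotic genes stood at 1.08, 1.17 and 1.10 in the cKO libraries and at 0.516 to 0.795 in the controls, so that on this scale the genotypes did not overlap. The ratio also held the groups apart, at 1.43, 1.66 and 1.92 against 0.744 to 1.21, once the 5 most abundant mitotic genes and the 3 most abundant RGP markers were left out. Relative to the summed S-phase genes, the mitotic genes stood at 1.07 to 1.41 in the cKO libraries and at 0.788 to 1.27 in the controls. On that scale the genotypes overlapped. With the summed RGP markers as a covariate, a fit added after the data had been seen, 18 of the 55 genes rose, among them all 12. The median log2 fold change was 0.68. Over all 11551 genes tested, 349 rose and 200 fell in that fit, against 262 and 102 in the reported fit.

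**Figure D5:**
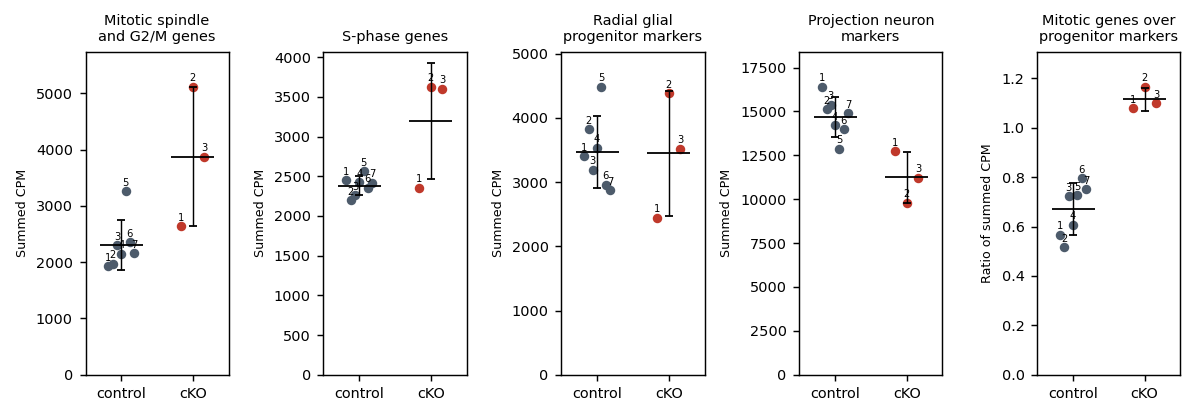
Summed CPM per library (y axis; last panel, ratio of sums) for the 55 mitotic genes, S-phase genes, RGP markers, projection neuron markers, and for mitotic genes over RGP markers, in control (grey) and cKO (red) libraries numbered by replicate, with means (lines) and 1 SD (bars). The mitotic sums overlap between 2639 and 3262 CPM, while the ratio to RGP markers is 1.08 to 1.17 in cKO and at most 0.795 in controls.

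Of the other genes of mitosis on a wider list of 133, 128 were tested. Of these 11 rose (8.59%, background 2.27% of all genes) and none fell. At an unadjusted p under 0.05, 35 were higher and 0 lower, against 9.25% of all genes higher. DESeq2 called 11 higher and 0 lower, and limma-voom 6 and 0. The median log2 fold change was 0.38, and 98 of 128 values were above 0, which held for 51.3% of all genes. The switch into mitosis gave 4 of the 11. Cdk1, the kinase that drives mitosis, was at 89.0, 257 and 152 CPM in the cKO libraries and 56.4 to 117 CPM in the controls (log2 fold change 1.05, SE 0.26, adjusted p = 0.0356). Its cyclins Ccnb1 and Ccnb2 had log2 fold changes of 1.20 (SE 0.30) and 1.19 (SE 0.27), and Gtse1, a microtubule-tracking protein of G2 that also restrains p53, one of 1.75 (SE 0.30). The remaining 7 were Psrc1 (1.54), Cit (1.67), Kifc1 (1.86), Cenpm (0.87), Dsn1 (1.19), Ckap2 (0.93) and Shcbp1 (1.16). By role, the median log2 fold change was 0.69 for the switch into mitosis. It was 0.58 for further kinetochore and centromere genes and 0.48 for further spindle and cytokinesis genes. The 16 subunits and inhibitors of the APC/C had a median of -0.0094, the 13 genes of cohesin and further condensin 0.12 and the 10 DREAM and MuvB regulators 0.050. In these last 3 groups no gene rose or fell by edgeR, DESeq2 or limma-voom. At an unadjusted p under 0.05 stood 1 gene among the DREAM and MuvB regulators (Mybl1, log2 fold change 1.09, SE 0.51, singled out after its value was seen). The count of 11 was 23 without cKO replicate 1, 3 without cKO replicate 2 or 3, and 6, 5, 5, 7 and 6 without control replicate 1, 2, 3, 4 or 7.

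Of 48 S-phase genes tested, 3 rose (6.25%, background 2.27% of all genes) and none fell. At an unadjusted p under 0.05, 19 were higher and 0 lower, against 9.25% of all genes higher. DESeq2 called 8 higher and 0 lower, and limma-voom 2 and 0. The 3 that rose were Mcm5 of the replicative helicase, Uhrf1, which guides maintenance DNA methylation, and Tipin of the replication fork. Their log2 fold changes were 0.91 (SE 0.24), 0.998 (SE 0.24) and 0.71 (SE 0.18). The median of the list was 0.49, and the summed level was 2354, 3631 and 3603 CPM in the cKO libraries against 2200 to 2562 CPM in the controls, with replicate 1 again inside the controls. The count was 14 without cKO replicate 1, 0 without cKO replicate 2 or 3 or control replicate 2 or 3, and 1 without control replicate 4, 5 or 7. No test of the difference between the S-phase and the mitotic genes was made.

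Markers of the cells that the sort could hold moved with the genotype in part. Over all genes tested, 2.27% rose and 0.883% fell. No RGP marker of 18 tested passed in edgeR, DESeq2 or limma-voom (3 higher and 1 lower at an unadjusted p under 0.05). No intermediate progenitor marker of 12 passed in edgeR (2 higher and 3 lower unadjusted; Sstr2 lower by DESeq2), and the sums of the second list overlapped (1382 to 1701 CPM in cKO, 1089 to 1991 CPM in controls). The RGP markers with the smallest p were Tnc, Hes5 and Aldoc, with log2 fold changes of 1.35 (SE 0.39), 0.48 (SE 0.19) and -0.36 (SE 0.16), and those of intermediate progenitors Sstr2, Neurog2 and Btg2, at -0.55 (SE 0.16), -0.68 (SE 0.24) and 0.58 (SE 0.22). Of 20 projection neuron markers 5 fell, among them Neurod2, Neurod6, Cux2 and Nrp1, with log2 fold changes of -0.75 (SE 0.14), -0.98 (SE 0.14), -1.07 (SE 0.25) and -1.07 (SE 0.14), and the list gave 8 lower and 1 higher by DESeq2 and 5 lower by limma-voom. The sum of the list was 9794 to 12721 CPM in the cKO libraries against 12870 to 16418 CPM in the controls. All 8 Cajal-Retzius markers tested rose (Reln, Trp73, Lhx1, Lhx5, Calb2, Ndnf, Cacna2d2 and Nhlh2), by 1.84 to 3.68 on the log2 scale, as they did by limma-voom, and DESeq2 called 6 of the 8, without Trp73 and Ndnf. The markers summed to 657 to 904 CPM against 26.5 to 237 CPM. Of 8 interneuron markers Dlx2 alone passed, in edgeR, DESeq2 and limma-voom (log2 fold change 1.63, SE 0.41), with 5 higher and none lower at an unadjusted p under 0.05. Dlx5 and Gad2, next by p, did not pass, with log2 fold changes of 1.37 (SE 0.56, adjusted p = 0.219) and 1.34 (SE 0.55, adjusted p = 0.230). The part of these cell types in the levels of the mitotic genes was not tested.

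Dissociation-response genes also moved with the genotype: 4 of 13 rose (Fos, Fosb, Egr1 and Dusp1), against 2.27% of all genes tested. Their sum was 1733 to 3362 CPM in the cKO libraries against 1022 to 1764 CPM in the controls. Blood markers were high in 3 libraries of both genotypes, at 2313 CPM in cKO replicate 1, 1501 CPM in control replicate 2 and 1825 CPM in control replicate 5, and at 2.35 to 66.1 CPM in the other 7, and the embryonic globins Hbb-y and Hbb-bh1 were at 0 in every library. Without those 3 libraries, an alternative added after the data had been seen, 22 mitotic genes rose, with 10 of the 12 among them, and the median log2 fold change was 1.08. Over all genes, 192 rose and 86 fell in that fit. No endothelial or pericyte marker of 11 had enough reads to be tested, and their sums were 7.42 to 25.6 CPM against 3.57 to 11.6 CPM. Microglial markers summed to 9.45 to 67.9 CPM against 6.81 to 16.8 CPM, with Trem2 at 0 throughout. The part of dissociation in these results was not tested.

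The genes lie on 17 chromosomes, with at most 10 on any 1 of them (chromosome 2). The 5 genes on chromosome 7, of which the sorted cells can carry uniparental disomy, were Mki67, Plk1, Bub3, Kif22 and Prc1, and none of them passed. Their median log2 fold change was 0.62. Exons of 13 of the 55 genes overlap a gene on the other strand, and a read that falls on more than 1 gene is left out of the counts used here. Adding up the strand-specific counts, which keeps such reads but also takes in those of the partner, gave more reads for all 13, from 1.001 times as many for Ube2c to 3.41 times for Kif20a (partner Cdc23). The total was higher by the largest factors for Kif20a, Kif4 (2.25 times, partner Pdzd11), Prc1 (1.72 times, Rccd1), Ncapg (1.30 times, Lcorl) and Cenpk (1.23 times, Ppwd1), and how much of this belongs to either gene cannot be told apart. None of these 5 rose in either way of counting. Among the genes that rose, the total was 1.13 times as high for Knstrn and 1.01 times for Tacc3. With the summed counts 11 of the 55 genes rose, with Knstrn among them (log2 fold change 1.35, adjusted p = 0.00844), and Tacc3 did not pass (0.79, adjusted p = 0.0530).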

How the data were processed

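Smart-Seq2 libraries were made from 400 sorted cells of single E16 embryos, 3 cKO and 7 control. The authors combined technical replicates, aligned reads to GRCm38 with STAR 2.5.0c, kept unique alignments and counted them on GENCODE M16 genes. The deposited values are raw counts of reads, in 1 column that ignores strand, used here, and a column for each strand. No molecular identifiers were described, so counting error and amplification cannot be told apart. Reads on genes ran from 1738220 to 3362487 per library. The 24 pairs of libraries of 1 genotype differed by more than sampling noise.

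Symbols came from GENCODE M21 (105 of 53379 genes unmatched). A mean of 10 or more reads per library left 11551 genes, which were tested by edgeR 4.0.16 in R 4.3.3 (TMM factors, glmQLFit, glmQLFTest, genotype alone), with Benjamini-Hochberg adjustment and a threshold of 0.05. On simulated counts of this design, run on 11388 genes, 40.0% of genes changed 2-fold and 90.5% of those changed 4-fold were recovered. The SE is the log2 fold change divided by the square root of F. CPM are TMM-scaled, and sums and promoter matches are given without a test. The members, the gene lists and the tests were chosen with earlier results of these data known.

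The genes named are those of the 55 with an adjusted p under 0.05, the 12 with the smallest p, the 3 highest per kb of exon, 6 textbook markers, from every other list the genes that passed or the 3 with the smallest p, and Cdkn1c and Cdkn1a, and some genes that this rule names are not reported here. Other genes of the 55 were described by role, after their values had been seen. Alternatives were DESeq2 1.42.0, limma-voom (limma 3.58.1), other scalings, filters, dispersions and count columns, thinned counts, covariates, a replicate block and each library left out. The labels' replicate numbers did not pair the samples.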

Additional observations from a re-analysis of the deposited data

Results flagged for a closer look

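Among 105 sets of 7 control values that were examined, 9 had a highest or lowest library whose gap to the next exceeded Dixon's 95% critical value, and chance alone gives about 5% of sets. In 7 of the 9 that library was control replicate 5. It had the fewest reads on genes (1738220, with 2819458 in the next library), the highest summed level of the 55 mitotic genes (3262 CPM, next 2354 CPM) and the highest median of their log2 values relative to the control mean (0.58, next 0.086). It was also the highest control for Spc24 (85.0 CPM), Anln (9.90 CPM) and Cks1b (168 CPM), and the lowest for the neuronal gene Neurod2 (459 CPM). Without it 14 mitotic genes rose, 11 of them among the 12, and 234 genes rose over all genes tested. The other sets were Egr1, at 95.8 CPM in control replicate 1 against 63.6 CPM in the next, and Cdkn1a, at 69.2 CPM in control replicate 2 against 24.2 CPM in the next.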

How the results depend on the processing

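The 12 mitotic genes that rose became 21 where every gene with a read was kept (961 genes differing over all, against 364), 22 without the libraries high in blood markers, and 4 to 22 when 1 library at a time was left out, with 14 by DESeq2 and 12 by limma-voom. Cenpa, Hmgb2, Knstrn and Pttg1 passed in all 23 alternatives, Ube2c in 22, Cdca3 in 21, Kif15 in 18, Kif2c in 17, Birc5 and Cenpf in 15, Incenp in 13 and Tacc3 in 11. The median log2 fold change ran from 0.34 to 1.01 with 1 library left out and was 1.08 without the libraries high in blood markers, and the ratio of summed levels ran from 1.41 to 1.95. For the wider mitotic list the count of 11 became 6 by limma-voom, 5 on thinned counts, 19 without the libraries high in blood markers and 3 to 23 with 1 library left out. For S phase, the count of 3 became 8 by DESeq2, 5 with every gene kept, 6 without the libraries high in blood markers, 7 with the RGP covariate and 0 to 14 with 1 library left out. Over all genes, 364 differed in the reported fit, 549 with the RGP covariate, and 271 to 424 with 1 library left out and no covariate. The cause of these shifts was not tested. The fits with libraries left out hold fewer libraries, and the fit that kept every gene holds 26537 genes in place of 11551.

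Replicate numbers are shared by the genotypes, but the deviations of same-numbered libraries correlated at 0.046, -0.10 and -0.21, and no cKO library was closest to the control of its own number. With the replicate block 9 mitotic genes rose, 8 of them among the 12, beside 4 of the wider list, 0 of the S-phase genes and 213 genes in all.

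The log2 fold change of 46 of the 55 mitotic genes stayed above 0 in every alternative that tested them, and that of 9, none of them among the 12, fell below 0 in at least 1. With 1 library left out it ran from -0.51 to 1.30 for Ect2, from -0.53 to 0.84 for Kif4 (-0.022 by limma-voom), from -0.20 to 0.76 for Ncapg, from -0.14 to 0.96 for Nusap1, from -0.12 to 0.56 for Ncapd2 (-0.036 without the libraries high in blood markers), from -0.047 to 0.38 for Ncaph, from -0.030 to 1.17 for Kif11, from -0.026 to 0.95 for Aspm and from -0.017 to 0.91 for Prc1. The lowest value was without cKO replicate 2 for all but Ncapd2, for which it was without cKO replicate 1. Of the other genes named, Hbb-bt alone changed sign: its log2 fold change was between -3.48 (without cKO replicate 1) and 1.92 (without control replicate 2) with 1 library left out, and reached 3.37 by limma-voom. With these depths, genes such as Espl1 and Mybl2, at 1 to 25 and 6 to 20 reads per library, could be compared only coarsely.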
